A study of Arabidopsis thaliana with 4 samples.

Results

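The genes described here are 8 nuclear genes of Arabidopsis thaliana whose proteins work in the thylakoid membrane. The rule that chose them uses names and loci of the array's platform annotation and no measured value, though it was written with earlier results of these data known. They are 8 of the 1801 genes that could be named. The antenna genes are LHB1B2 (AT2G34420), LHCB4.1 (AT5G01530), LHCB4.2 (AT3G08940) and LHCB4.3 (AT2G40100). PSAE-1 (AT4G28750) and PSAN (AT5G64040) belong to photosystem I, PSBY (AT1G67740) to photosystem II, and ATPC1 (AT4G04640) to the chloroplast ATP synthase. The study set the hy5 mutant against wild type after 4 days of uninterrupted white light. Total RNA of both genotypes was hybridised together on each of 4 arrays of long oligonucleotide probes, which the design text calls biological replicates. The mutant carried Cy3 and wild type Cy5 on replicates 1 and 2, and the mutant carried Cy5 and wild type Cy3 on replicates 3 and 4. The sources used here do not name the hy5 allele, the background strain or the tissue taken, and ratios carry no level from which a tissue could be checked.

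Light-harvesting proteins bind chlorophyll and pass absorbed energy to the photosystems, which drive electrons along the thylakoid membrane, and the resulting proton gradient powers the ATP synthase. HY5 is a bZIP transcription factor that acts downstream of photoreceptors and binds ACGT-containing promoter elements. Genes of chlorophyll-binding antenna proteins are classic light-induced genes, and HY5 is known as one of the factors acting on light-responsive promoters.

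Each value is a log2 ratio of both dyes on an array, as the authors deposited it, so 0 means equal signal and 1 in size means a 2-fold difference. It is not stated if a common direction had been given to the dye-swapped arrays before deposit, and every result is therefore read in both ways. In the reading called as deposited, all values are used as they stand. In the reading called turned, replicates 1 and 2 are multiplied by -1. If the deposited columns share a common direction and follow the labels, which name the mutant first, positive means mutant over wild type as deposited. If they hold Cy5 over Cy3, positive means mutant over wild type when turned. Neither is stated. For this reason the text gives signs of ratios and assigns none of them to a genotype.

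All 8 genes had a value on all 4 arrays, against 60.4% of the 27443 features (genes, and probes without a gene name). Replicate 4 lacked 34.9% of its probes and the others 3.29% to 9.55%. The median size of the ratio was 0.372 on each array, while the 5th percentile of the ratios ran from -1.76 to -1.33. The arrays thus matched in median size and not in the lower tail. The 25th and 75th percentiles were -0.494 and 0.280 on replicate 4, against -0.377 and 0.368 on replicate 1. The 8 means over arrays ran from -0.29 to 0.11 as deposited and from -0.44 to 0.19 when turned. Their median size was 0.068 as deposited, against 0.203 for all 16577 features with 4 values, and 0.158 when turned, against 0.211 for those features. For the 1203 named genes among those features, the 8 included, it was 0.179 as deposited and 0.190 when turned.

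None of the 8 genes passed an adjusted p of 0.05 in limma under either reading, and the background was 0% of 24153 features under both. Without adjustment, 0 of the 8 had a limma p under 0.05 as deposited, where the background was 7.57% of features. When turned, 1 of the 8 did, which was LHCB4.2, against a background of 8.79%. The smallest adjusted p in limma among the 8 was 0.848 as deposited and 0.552 when turned. As deposited, 0 of the 8 kept 1 sign on all 4 arrays, where 19.2% of features did. When turned, 2 of the 8 did, LHCB4.2 and PSBY, against 21.6% of features. Both were negative on all 4 arrays, as were 10.7% of features.

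**Figure D1:**
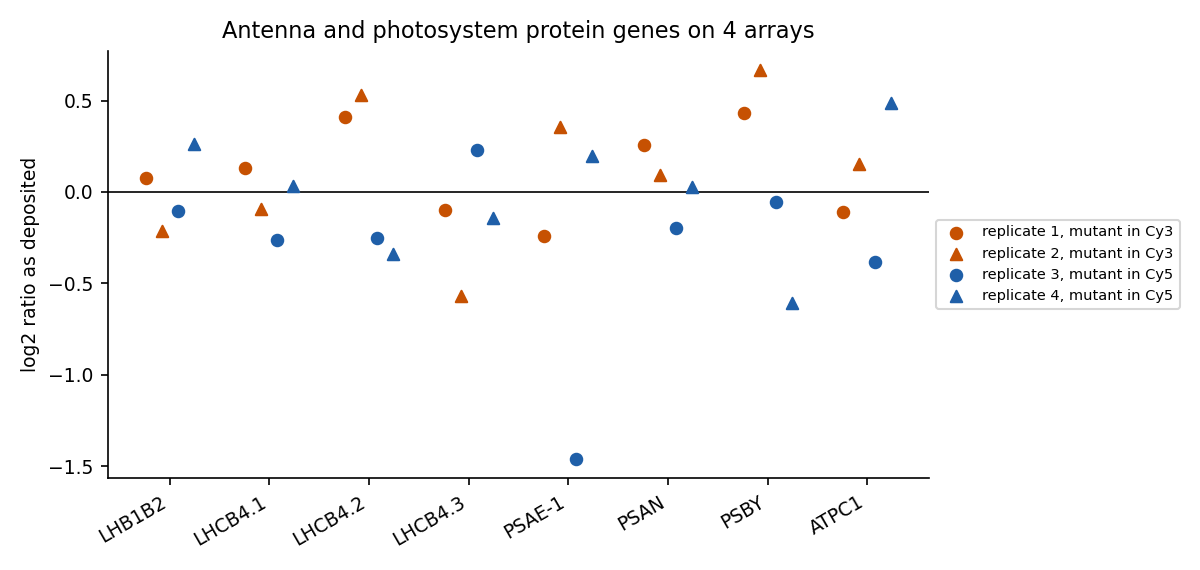
Log2 ratios as deposited (vertical axis) of the 8 genes (horizontal axis), 1 point per array, coloured by the dye of the mutant. LHCB4.2 and PSBY are positive on both arrays with the mutant in Cy3 and negative on both with the mutant in Cy5, and PSAE-1 on replicate 3, at -1.46, is the lowest value.

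LHB1B2 encodes a protein of the LHCB1 type, the main component of the trimeric antenna of photosystem II. Its ratios were 0.076, -0.21, -0.10 and 0.26 on replicates 1 to 4. The signs differed within each dye orientation, and no array stood away from the others. Its mean was 0.0050 ± 0.21 as deposited and 0.073 ± 0.19 when turned (SD, n = 4 each). The 95% interval from limma's moderated error ran from -0.42 to 0.43 as deposited and from -0.32 to 0.47 when turned. On the linear scale these intervals reached at most a 1.35-fold and a 1.38-fold difference in either direction.

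The 3 LHCB4 genes encode isoforms of CP29, a monomeric antenna protein that sits between the photosystem II core and the outer trimers. LHCB4.1, measured by 2 probes, had averaged ratios of 0.13, -0.096, -0.26 and 0.032 on replicates 1 to 4. Neither dye orientation held a constant sign. The mean was -0.048 ± 0.17 as deposited and -0.066 ± 0.16 when turned (SD, n = 4 each), with intervals reaching at most 1.37-fold and 1.36-fold.

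Averaging hid a disagreement between the probes of LHCB4.1. The first probe gave -0.045, 0.025, -0.64 and 0.31 on replicates 1 to 4, and the second gave 0.31, -0.22, 0.12 and -0.245. They had opposite signs on 4 of 4 arrays. The root mean square difference between both probes was 0.514 on the log2 scale, larger than the gene's own mean under either reading. For comparison, the median of that difference was 0.609 over the 17 named genes with exactly 2 probes and all values, LHCB4.1 among them. Which part of the transcript each probe covers is not known here.

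**Figure D2:**
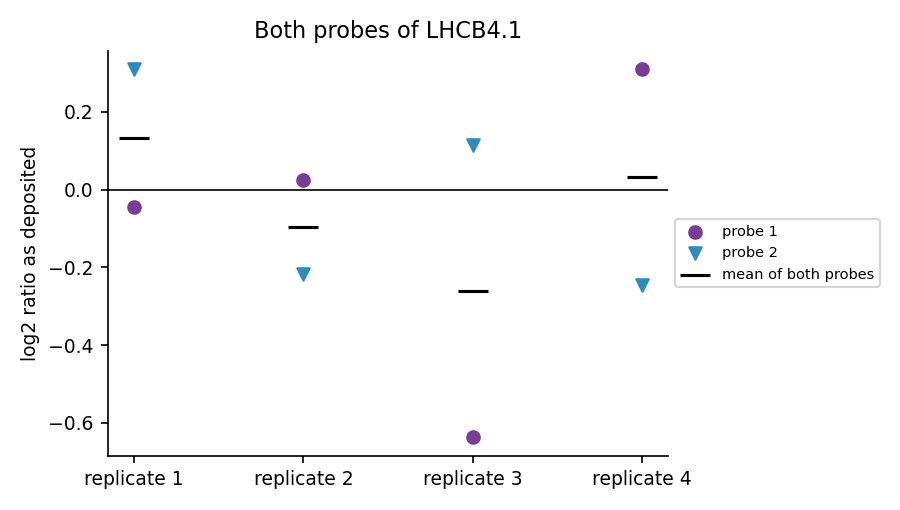
Log2 ratios as deposited (vertical axis) of both probes of LHCB4.1 on the 4 arrays (horizontal axis), with a bar at their mean. The probes lie on opposite sides of 0 on every array, farthest apart on replicate 3 at -0.64 and 0.12.

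LHCB4.2 had ratios of 0.41, 0.53, -0.25 and -0.34 on replicates 1 to 4. It turned its sign with the dyes, and arrays of the same orientation differed by only 0.117 and 0.0864. The pair means were 0.47 with the mutant in Cy3 and -0.29 with the mutant in Cy5. As deposited these cancelled to a mean of 0.089 ± 0.45 (SD, n = 4), and turned they gave -0.38 ± 0.12 (SD, n = 4). The turned SD of 0.118 was the smallest of the 8, with PSAN close to it at 0.125. The median turned SD was 0.233 for the 8 genes, 0.374 for the named genes with 4 values and 0.428 for all features. The turned interval of LHCB4.2 ran from -0.75 to -0.018, and its limma p was 0.0431 before adjustment and 0.552 after it. The exact sign permutation test gave a two-sided p of 0.125, the smallest that 4 arrays allow.

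LHCB4.3 is the more divergent CP29 isoform, known to respond to strong light. Its ratios were -0.096, -0.57, 0.23 and -0.14 on replicates 1 to 4. Both arrays with the mutant in Cy3 were negative, and the arrays with the mutant in Cy5 were split. Its mean was -0.14 ± 0.33 as deposited and 0.19 ± 0.30 when turned (SD, n = 4 each), and the intervals reached at most 1.55-fold and 1.56-fold. Without replicate 2 it was -0.0037 as deposited and 0.060 when turned. A further probe that the annotation gives to this gene and another one was not used.

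Within the CP29 isoforms the largest difference in ratio was between LHCB4.2 and LHCB4.3. Set against each other on the same array, the turned ratio of LHCB4.2 lay below that of LHCB4.3 on 4 of 4 arrays, by 0.51, 1.10, 0.48 and 0.19. As deposited, LHCB4.2 lay above LHCB4.3 on replicates 1 and 2 and below it on replicates 3 and 4. The comparison was added after the values were seen. The share of other gene pairs with 1 sign of the difference on all 4 arrays is not given here. The mean difference of LHCB4.2 minus LHCB4.3 was -0.57 ± 0.38 when turned and 0.23 ± 0.71 as deposited (SD, n = 4 each). The exact permutation p was 0.125 when turned and 0.625 as deposited. Adjusted over the 8 differences tested between paralogs under both readings, the exact p-values were 0.500 and 0.833. LHCB4.1 differed from LHCB4.2 by 0.32 ± 0.26 and from LHCB4.3 by -0.25 ± 0.31 when turned (SD, n = 4 each), each with an exact p of 0.25. As deposited these differences were -0.14 ± 0.42 and 0.097 ± 0.41 (SD, n = 4 each). Antenna genes are close paralogs, and how far their probes share signal was not tested.

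**Figure D3:**
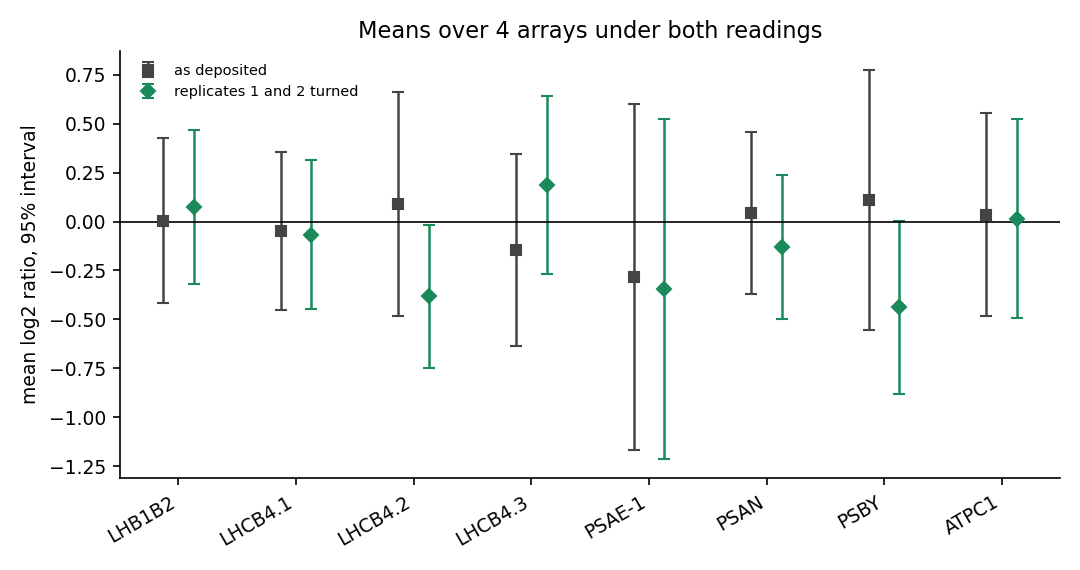
Mean log2 ratio over 4 arrays (vertical axis) of the 8 genes (horizontal axis), with bars for the 95% interval of limma's moderated error, as deposited (squares) and with replicates 1 and 2 turned (diamonds). All intervals hold 0 except that of LHCB4.2 when turned, which ends at -0.018, and those of PSAE-1 are the widest.

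Photosystem I was represented by a stromal and a lumenal subunit. PSAE-1 encodes subunit E, which helps to dock ferredoxin on the stromal side. Its ratios were -0.24, 0.36, -1.46 and 0.20 on replicates 1 to 4. Replicate 3 was far below the other arrays, and it was the only one of the 32 values of the 8 genes beyond 1 in size. On that array 8.77% of features lay at least as far from 0, and 5.89% had a lower ratio. The mean of PSAE-1 was -0.29 ± 0.82 as deposited and -0.34 ± 0.79 when turned (SD, n = 4 each). Without replicate 3 it was 0.11 as deposited and 0.027 when turned, so this array alone set the sign under both readings. The adjusted p in limma was 0.848 and 0.773. This gene had the widest intervals, reaching 2.25-fold as deposited and 2.32-fold when turned.

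PSAN encodes subunit N, a lumenal protein near the plastocyanin docking site. Its ratios were 0.26, 0.090, -0.20 and 0.027 on replicates 1 to 4. All 4 were small, and both arrays with the mutant in Cy3 were positive. The mean was 0.045 ± 0.19 as deposited and -0.13 ± 0.13 when turned (SD, n = 4 each). The intervals reached at most 1.37-fold and 1.41-fold, and neither left 0 outside.

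PSBY, which encodes small membrane-spanning proteins of photosystem II, had ratios of 0.43, 0.67, -0.052 and -0.61 on replicates 1 to 4. Like LHCB4.2 it was positive with the mutant in Cy3 and negative with the mutant in Cy5, with pair means of 0.55 and -0.33. Its mean was 0.11 ± 0.56 as deposited and -0.44 ± 0.28 when turned (SD, n = 4 each), the largest mean of the 8 under the second reading. The turned interval ran from -0.88 to 0.0043, and the adjusted p in limma was 0.569, with 0.0515 before adjustment. The exact permutation p was 0.125, again the smallest possible. Of all pairs with LHCB4.2 among the 8 genes, PSBY was the nearest, with a root mean square difference of 0.181 over the 4 arrays.

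ATPC1 encodes the gamma subunit of the chloroplast ATP synthase, the rotor shaft through which the enzyme is regulated by light-dependent thiol chemistry. Its ratios were -0.11, 0.15, -0.39 and 0.48 on replicates 1 to 4. Signs were mixed within each orientation, and the gap of 0.870 between replicates 3 and 4 exceeded the mean. That mean was 0.035 ± 0.37 as deposited and 0.015 ± 0.37 when turned (SD, n = 4 each), with intervals reaching at most 1.47-fold and 1.44-fold.

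The intervals of 7 of the 8 genes stayed within a 2-fold difference in either direction under both readings, PSAE-1 being the exception. These are intervals of single genes, not adjusted over the 8, and they cover the spread between these 4 arrays only. The share of all features with such intervals was not counted, so 7 of the 8 cannot be called a trait of these genes. A mean beyond 1 in size was found for 0 of the 8 genes under either reading, against 5.88% of features as deposited and 4.13% when turned.

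Each value was also placed within its own array. All 32 values fell between the 5th and 95th percentiles of their array, and 23 of 32 fell between the 25th and 75th percentiles. On replicate 3, 7 of the 8 genes were negative, LHCB4.3 being the exception, while 50.2% of all features on that array were negative. Replicates 1, 2 and 4 each had 3 negative genes of the 8, while 49.2%, 50.6% and 54.0% of all features on them were negative. The median of the 8 was -0.22 on replicate 3 and 0.10, 0.12 and 0.030 on replicates 1, 2 and 4. Replicate 4, its partner in dye orientation, thus had 5 positive genes where replicate 3 had 1.

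**Figure D4:**
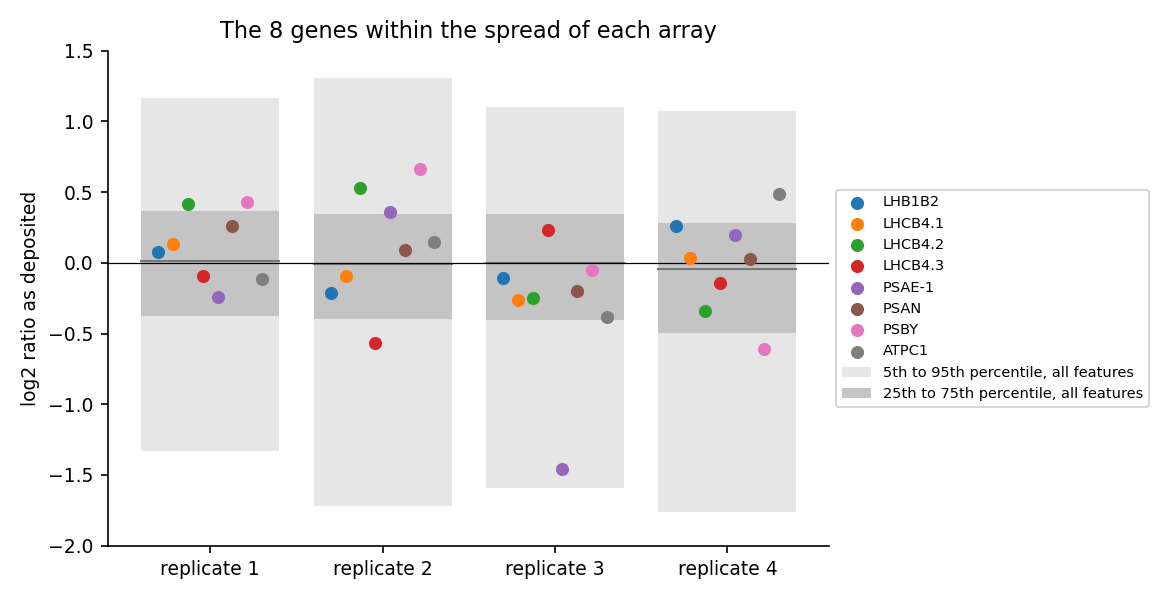
Log2 ratios as deposited (vertical axis) of the 8 genes on each array (horizontal axis), over bars for the 5th to 95th and the 25th to 75th percentiles of all features of that array. On replicate 3, 7 of the 8 points lie below 0, and no point on any array leaves the wider bar.

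Agreement in sign between arrays of the same dye orientation was also counted. With the mutant in Cy3, 4 of the 8 genes had the same sign on both arrays (LHCB4.2, LHCB4.3, PSAN and PSBY), against 66.4% of features. With the mutant in Cy5, 2 of the 8 did (LHCB4.2 and PSBY), against 60.1% of features. The gap between both arrays had a median of 0.249 with the mutant in Cy3, against 0.348 for all features, and of 0.370 with the mutant in Cy5, against 0.423. These counts are a description of 8 genes and carry no test.

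The other genes of the photosynthetic machinery were mostly out of reach of the annotation. Of 53 further loci listed as antenna proteins, photosystem subunits, electron carriers, ATP synthase subunits or carbon fixation enzymes, 2 could be named, both in the list of electron carriers and ATP synthase. The annotation text added 1 more gene, TAPX (AT1G77490), which encodes the thylakoidal ascorbate peroxidase that removes hydrogen peroxide at the membrane. Of these 3 genes, 0 passed in limma in either direction under either reading. At an unadjusted limma p under 0.05 there was 1 under each, ATPC2 as deposited and AT2G26500 when turned. The background at that threshold was 7.57% of features as deposited and 8.79% when turned.

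ATPC2 (AT1G15700), the second gene of the plastid ATP synthase gamma subunit, had ratios of -0.51, -0.28, -0.68 and -1.01 on replicates 1 to 4. It was negative on all 4 arrays, a pattern that 10.3% of features showed as deposited. Its mean as deposited was -0.62 ± 0.31 (SD, n = 4), with an interval from -1.10 to -0.14 and an adjusted p in limma of 0.566. Turned, the mean was -0.23 ± 0.73 (SD, n = 4). As deposited it lay below its paralog ATPC1 on 4 of 4 arrays, with a mean difference of ATPC2 minus ATPC1 of -0.65 ± 0.56 (SD, n = 4). The exact permutation p of that difference was 0.125, and 0.500 adjusted over the 8 differences. Turned, the difference was -0.24 ± 0.90 (SD, n = 4) with an exact p of 0.875.

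AT2G26500, a locus of the electron carrier and ATP synthase list that carries no symbol in the gene table, had ratios of -0.88, -0.71, 0.26 and 0.98 on replicates 1 to 4. It changed sign with the dyes, in the sense opposite to LHCB4.2 and PSBY. Its mean was -0.086 ± 0.87 as deposited and 0.71 ± 0.32 when turned (SD, n = 4 each), with an adjusted p in limma of 0.484 when turned. TAPX had ratios of -0.22, -0.32, 0.082 and 0.996 on replicates 1 to 4. It too was negative with the mutant in Cy3 and positive with the mutant in Cy5, most of all on replicate 4. Its mean was 0.14 ± 0.60 as deposited and 0.40 ± 0.41 when turned (SD, n = 4 each), with an adjusted p in limma of 0.636 when turned. Without replicate 4 it was -0.15 as deposited and 0.20 when turned. Turned, AT2G26500 and TAPX each kept 1 sign on all 4 arrays, as did 21.6% of features.

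**Figure D5:**
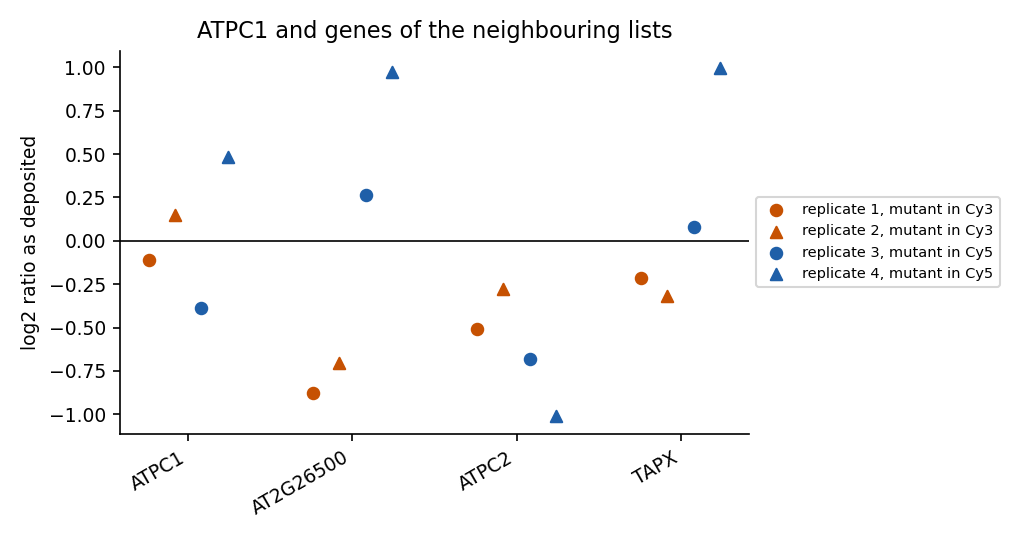
Log2 ratios as deposited (vertical axis) of ATPC1 and of AT2G26500, ATPC2 and TAPX (horizontal axis), 1 point per array. ATPC2 is below 0 on all 4 arrays, while AT2G26500 and TAPX are below 0 with the mutant in Cy3 and above 0 with the mutant in Cy5.

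The named genes with the most similar values on the 4 arrays were found by the root mean square difference, which is the same under both readings, among 1195 other named genes. They were AT3G24100 for LHB1B2 (0.0959), AT3G28550 for LHCB4.1 (0.0844), AT4G36530 for LHCB4.2 (0.0542) and AT3G06980 for LHCB4.3 (0.133). For the others they were AT2G27260 for PSAE-1 (0.168), IAGLU, an indole-3-acetate glucosyltransferase gene, for PSAN (0.0593), AT2G43320 for PSBY (0.103) and AT5G03220 for ATPC1 (0.0589). The median difference to a named gene was between 0.461 and 0.886. Within the 8 genes, PSAN and LHCB4.1 were the closest pair at 0.117, and PSAE-1 and LHCB4.3 the farthest at 0.980.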

How the data were processed

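The data were the log2 ratios deposited by the authors, 1 per probe and array. The submitters' processing notes name limma. Its version and parameters, the background correction, the normalization, the filter behind empty cells and the ratio's direction are not given in the labels or files, and base 2 was assumed. No intensities were used, so dim or saturated spots went unmarked, and precision is limited by the number of arrays.

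Of 27648 probes, 2032 were paired with 1 gene by the platform annotation, which can be old, 644 with several and 24972 with none. Symbols came from a TAIR10.1 gene table (2029 probes matched). Probes of a gene were averaged per array, and 26 genes with 1 accession on 3 or more probes were not named, genes spotted 17 times excepted. No build is named, so no coordinates are printed. HY5 and sequences were not analysed here.

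Each feature with at least 3 values was tested against 0 with limma 3.58.1 in R 4.3.3 (lmFit, eBayes, two-sided), with Benjamini-Hochberg adjustment over 24153 features and a threshold of 0.05. The fit was tested on simulated data. Exact tests flip the signs of the 4 arrays. Named are the 8 genes, the measured genes of the lists and the nearest gene to each. Members and lists were chosen with earlier results of these data known. The differences between paralogs were added after the values were seen. Alternatives covered moderation, centring, scaling, dye term, probes, median and arrays left out.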

Additional observations from a re-analysis of the deposited data

How the results depend on the processing

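Each ratio already pairs mutant with wild type on its array, so its test against 0 is the paired test. No paired analysis was possible beyond that because all 4 arrays form 1 group. Calls were counted under each alternative except quantile normalization, the median over arrays and the arrays of a single dye orientation. For the 8 genes, single probes were not counted either. Wherever calls were counted, limma called 0 features and 0 of the 8 genes after adjustment, as deposited and turned. Among the 8 genes, ATPC2, AT2G26500 and TAPX, the smallest adjusted p in limma was 0.440, with the dye term (AT2G26500, turned). Leaving the dye term aside it was 0.445, with quantile normalization (AT2G26500, turned). Adjusted p-values of single genes were not kept for the fits without moderation, with robust moderation or with all 4 values required. The features at an unadjusted p under 0.05 numbered 1304 to 1827 as deposited and 1316 to 2095 turned with each array left out, the lowest turned count being without replicate 2, and 2278 and 2578 with a dye term. Sign changes occurred only in means that had not passed, and the cause was not tested. With the median over arrays, LHB1B2 was at -0.01439 and TAPX at -0.06694 as deposited, and ATPC1 at -0.01934 turned. With the mutant in Cy3 alone, LHB1B2 was at -0.06812, LHCB4.1 at 0.01842, PSAE-1 at 0.05892 and TAPX at -0.2657 as deposited, and ATPC1 at -0.01934 and ATPC2 at 0.3927 turned. With the mutant in Cy5 alone, LHCB4.2 was at -0.2942, LHCB4.3 at 0.04256, PSAN at -0.08475, PSBY at -0.3296 and AT2G26500 at 0.6203 as deposited. With each array left out in turn, the means as deposited ranged from -0.08037 to 0.0774 for LHB1B2, -0.1081 to 0.023 for LHCB4.1, -0.05852 to 0.2305 for LHCB4.2, -0.2699 to -0.003687 for LHCB4.3, -0.4995 to 0.1056 for PSAE-1, -0.02642 to 0.125 for PSAN, -0.07591 to 0.3485 for PSBY, -0.1155 to 0.1744 for ATPC1, -0.4402 to 0.1784 for AT2G26500 and -0.1498 to 0.2873 for TAPX. Turned, they ranged from 0.06044 to 0.2983 for LHCB4.3, 0.2044 to 0.509 for TAPX, -0.5388 to 0.027 for PSAE-1, -0.1412 to 0.1486 for ATPC1 and -0.471 to 0.03511 for ATPC2, while LHCB4.2 stayed between -0.4267 and -0.3337 and PSBY between -0.5683 and -0.3636. Centring, scaling and quantile normalization changed no sign. The array medians already lay between -0.0405 and 0.012, and the median size of the ratio was 0.372 on each array. Centring and scaling could therefore move the means only little. The planned promoter motif counts and protein identities were not run. Signal over background was not used here.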

Other observations

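Probes of the same gene often disagreed on these arrays. Of the 17 named genes with exactly 2 probes and values on all 4 arrays, 2 had the same sign at both probes on every array and 3 had opposite signs on every array (LHCB4.1 is one of these). The root mean square difference between the probes of a gene had a median of 0.609 on the log2 scale, with quartiles of 0.482 and 1.08. It was at least as large as that of LHCB4.1 for 12 of the 17, LHCB4.1 included. For the other 7 of the 8 genes 1 probe each was used, and agreement between probes was not examined. Of the 8 genes, 2 also have a probe that the annotation shares with other genes, which was not used.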
